A study of Mus musculus with 12 samples.

Results

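The nuclear genome encodes most subunits of the 5 complexes of oxidative phosphorylation, and the genes examined here are those whose symbols name such a subunit. Members were all genes with a symbol of the Nduf A, B, C, S or V series followed by a number, Ndufab1, Sdha to Sdhd, and every symbol beginning with Uqcr, with Cox4 to Cox8 or with Atp5. This gave 84 of the 20432 genes measured. Grouped by symbol, 37 fell to complex I, 4 to complex II, 9 to complex III, 16 to complex IV and 18 to complex V. Of the 84, 79 reached the level needed for testing, and 76 did so in all 12 libraries. The rule also took in 2 genes annotated as pseudogenes, Uqcrh-ps1 and Atp5c1-ps. Cytochrome c1 and the ATP synthase inhibitor Atpif1 have symbols outside the rule and were not counted.

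Complex I oxidises NADH and complex II oxidises succinate, and both hand electrons to ubiquinone. Complex III passes them on to cytochrome c and complex IV to oxygen, while complex V uses the resulting proton gradient to make ATP. Complexes I, III, IV and V combine these nuclear-encoded subunits with subunits encoded in mitochondrial DNA, and complex II has nuclear-encoded subunits alone. Pancreatic ductal adenocarcinoma cells are widely studied for their use of glucose and glutamine, and oxidative phosphorylation is active in them beside glycolysis.

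The samples were cultured mouse pancreatic ductal adenocarcinoma cell lines numbered 52205, 52419, 52424, 53105, 53369 and 53371. The 6 Cre libraries came from lines infected with the pBabe-Cre-puro retrovirus, selected with puromycin at 2, 4 and 7 µg/ml and labelled JAK1 knockout, and the 6 parental libraries came from the same lines before infection, labelled wild type. All were grown in DMEM with 10% serum. JAK1 is the tyrosine kinase that carries cytokine and interferon receptor signals to STAT proteins. Each line had 1 library per condition, and p-values therefore rest on how similar the 6 pairs were. Virus infection, puromycin selection and time in culture cannot be told apart from loss of JAK1, since cultures given an empty vector were not analysed here. Poly(A)-selected RNA was sequenced, and in bulk RNA a smaller share of cells with a transcript and less of it per cell cannot be told apart.

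The libraries held 11.5 to 18.0 M reads in genes (M, 1e+06 reads), and both libraries of line 53105 were the deepest. Jak1 measured 104 to 234 normalised counts per 1e+06 reads (CPM), with a median of 167, in Cre libraries and 125 to 207 CPM, with a median of 171, in parental libraries. The groups overlapped (log2 change -0.04, limma adjusted p = 0.838), and a count over the whole gene does not check a deletion inside it. Summed ductal epithelial markers ranged from 360 to 13204 CPM in Cre and from 445 to 12569 CPM in parental libraries, and were lowest in lines 52419 and 53369. Summed leukocyte markers reached at most 9.50 CPM in Cre and 23.5 CPM in parental libraries, endocrine markers 0.077 and 0.079 CPM, and the muscle markers 46.1 and 41.0 CPM. Endothelial markers reached at most 5.32 CPM in Cre and 6.85 CPM in parental libraries, acinar markers 18.5 and 13.0 CPM, and brown fat markers 1.69 and 3.01 CPM. The fibroblast markers summed to 7.86 to 1265 CPM in Cre and 9.69 to 2173 CPM in parental libraries, and were highest in line 53369. Whether tumour cells or fibroblasts held these transcripts cannot be told apart in bulk RNA. Across the 12734 genes tested, 0 were higher and 3 (0.0236%) lower in Cre than in parental cells at an adjusted p under 0.05 (limma with the cell line as a block, Benjamini-Hochberg adjustment).

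Levels within the chain were compared per kilobase of exon. Complex IV genes had a median of 121 CPM per kb, complex V genes 108, complex III genes 98.3, complex II genes 67.7 and complex I genes 54.9. The highest single levels belonged to Atp5b, the catalytic beta subunit of ATP synthase, at 815 CPM per kb, to Cox4i1 at 537 and to Cox8a at 513. By condition, the median was 117 CPM per kb in Cre and 126 in parental cells for complex IV, 111 in Cre and 106 in parental cells for complex V, and 99.6 in Cre and 97.0 in parental cells for complex III. It was 69.9 CPM per kb in Cre and 65.5 in parental cells for complex II, and 53.5 in Cre and 54.3 in parental cells for complex I. These medians rank genes separately in each condition and do not pair the lines. In the paired fit, 10 of 12 complex IV and 29 of 37 complex I estimates were above 0. The 2 middle complex IV genes were Cox7b (118 CPM per kb in Cre, 114 in parental cells) and Cox7a2l (115 and 139).

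**Figure D1:**
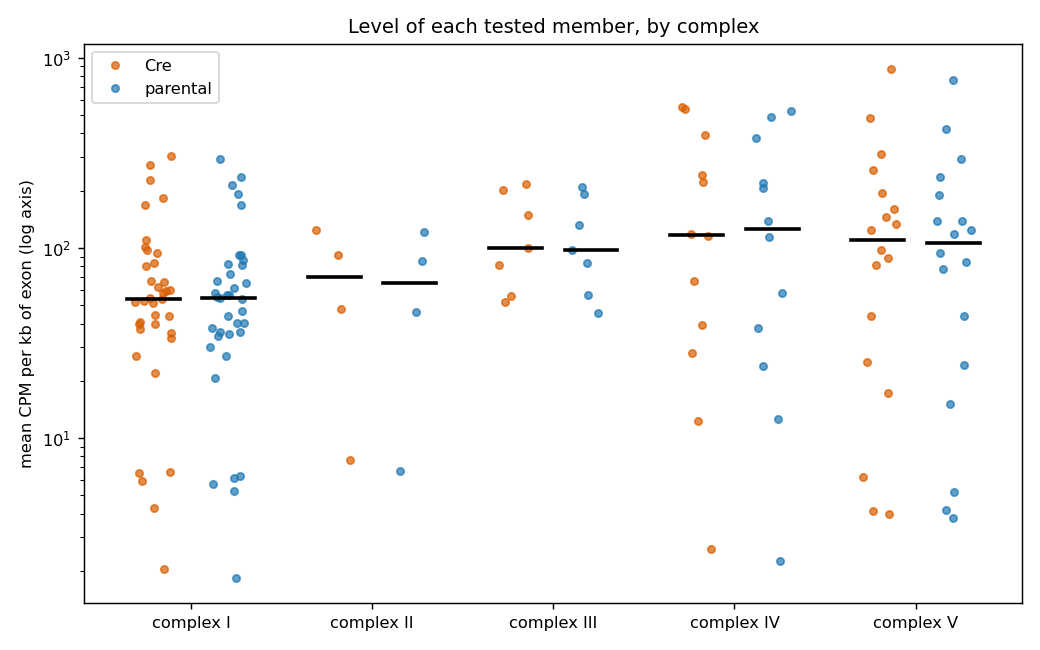
Mean level of each tested member over the 6 Cre (left of each pair of columns) and 6 parental libraries (right), in CPM per kilobase of exon on a log axis, by complex. Points are genes and black bars are medians. Levels within a complex span more than the difference between conditions, from 1.95 (Ndufab1) to 299 CPM per kb (Ndufb9) in complex I. Without line 53369 Ndufb9 was at 168 CPM per kb, below Ndufa4 at 255. Ndufab1 has 2 near-identical copies, and 4387 bases of exon for a coding sequence of 468, so its level is uncertain.

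Isoforms that replace the widespread form in heart, muscle, lung or testis were close to the limit of detection. Cox4i2, the lung-enriched form, had 13 reads in all 12 libraries together, Cox6a2, the heart and muscle form, had 24, Cox6b2, the testis form, had 55 and Cox8b, another heart and muscle form, had 2. None of these 4 genes reached the testing level. Their widespread counterparts were abundant: Cox4i1 averaged 419 ± 99.0 CPM in Cre and 403 ± 87.7 CPM in parental libraries, and Cox6a1 averaged 225 ± 39.3 CPM in Cre and 217 ± 42.5 CPM in parental libraries (SD, n = 6 each). Cox6b1 averaged 137 ± 17.2 CPM in Cre and 135 ± 22.4 CPM in parental libraries (SD, n = 6 each). The heart and muscle form Cox7a1 was tested but low, at 1.39 ± 0.821 CPM in Cre and 1.21 ± 0.448 CPM in parental libraries (SD, n = 6 each). Uqcr11, a small complex III subunit, had 4 reads in all libraries together. It has 2 near-identical pseudogene copies, so its level is uncertain.

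Cre against parental cells: no respiratory chain gene passed the adjusted threshold, and the estimated changes were small. Of 79 tested members, 0 were called higher and 0 lower by limma after Benjamini-Hochberg adjustment over all genes (background 0 higher, 0.0236% lower). At an unadjusted p under 0.05, 7 members (8.86%) were higher, against 6.96% of all genes tested, and 0 were lower, against 8.18%. The edgeR quasi-likelihood test and DESeq2 on the recovered reads also called 0 members after adjustment, and before adjustment each put 6 members (7.59%) higher and 0 lower, against 6.49% higher and 8.10% lower of all genes in edgeR and 6.13% higher and 7.77% lower in DESeq2. Estimated log2 changes ran from -0.24 (Ndufs5) to 0.27 (Ndufb10). In size, 77 of 79 (97.47%) were smaller than 0.25, against 77.99% of all genes tested. These shares were not matched for level: 76 of the 79 members reached 1 CPM in all 12 libraries, while testing needed 6. The 95% intervals of single members reached from -0.58 to 0.50.

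The estimates leaned to one side more often than those of other genes. They were above 0 for 64 of 79 members (81.0%), against 49.9% of all genes tested, with a median log2 change of 0.09, against -0.00 for all genes. The medians were 0.10 for complex I, 0.08 for complex II, 0.02 for complex III, 0.06 for complex IV and 0.07 for complex V. Members that were higher in Cre cells in all 6 pairs numbered 7 (8.86%), against 4.11% of all genes, and 0 were lower in all 6, against 4.56%. Much of this lean came from 1 pair. Without pair 52205 the median over members was 0.02, and 45 of 79 estimates were above 0, with the complex III median at -0.02 and the complex IV median at -0.01.

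**Figure D2:**
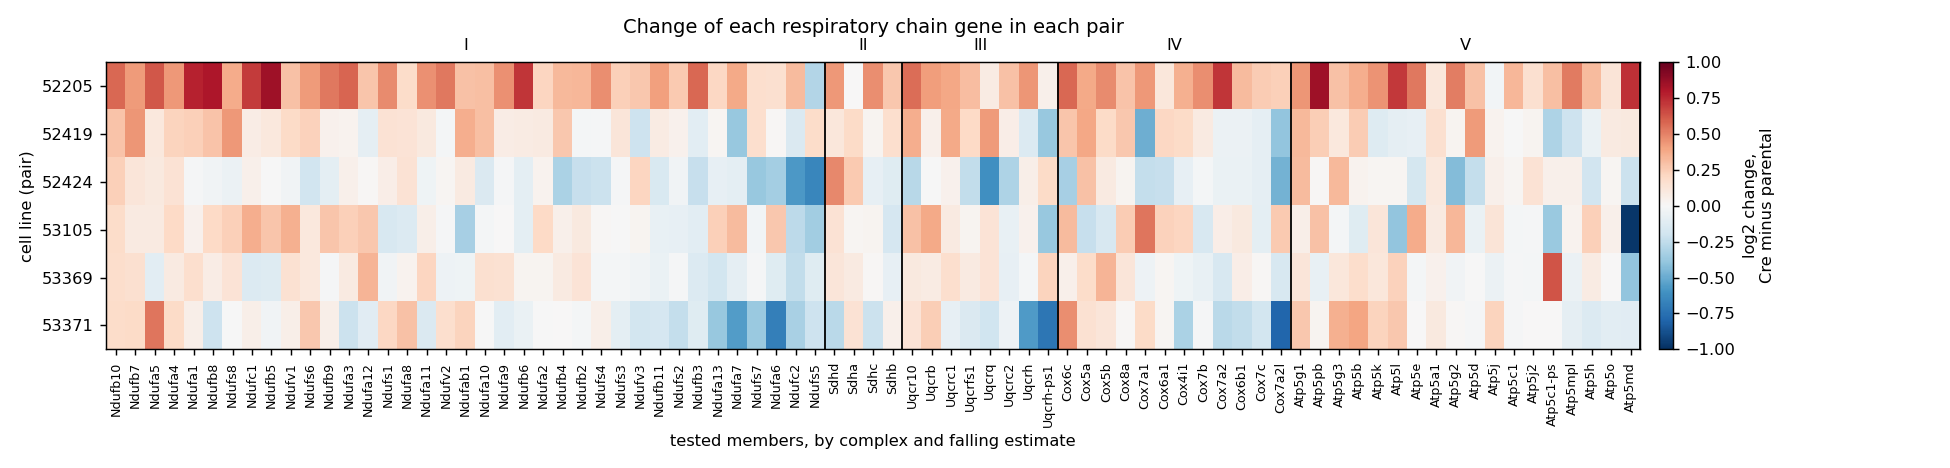
Log2 change, Cre minus parental, of each of 79 tested members (columns, grouped by complex and ordered by estimate) in each of the 6 pairs (rows). Red is higher and blue lower in Cre. The 52205 row is red for 77 of 79 members, while the other rows mix both colours.

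In line 52205, respiratory chain genes of every complex were higher in the Cre library. The change was above 0 for 77 of 79 members (97.5%), against 50.5% of all genes in that pair, and the 2 exceptions were Ndufs5 and Atp5j. The median log2 change in this pair was 0.41 for complex I, 0.35 for complex II, 0.35 for complex III, 0.37 for complex IV and 0.35 for complex V. In the other 5 pairs the complex medians lay between -0.12 and 0.15. Of the 79 members, the number higher in Cre was 57 in pair 52419, 34 in 52424, 51 in 53105, 43 in 53369 and 37 in 53371. Of all 12734 genes tested, 6571, 6400, 6239, 6506 and 5996 were higher in the same order. With 1 library of each kind, the 52205 change has no replicate of its own, and it was not tested.

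Other gene groups moved with it in the same pair. Cytosolic ribosomal protein genes had a median of 0.43 in pair 52205 and between -0.46 and 0.02 in the other 5, and mitochondrial ribosomal protein genes had 0.30 in 52205 and between -0.11 and 0.15 elsewhere. Replication and mitosis genes had 0.42 in pair 52205, but 2.12 in pair 53371, where the members' median was -0.01. The mitochondrially encoded subunits went the other way in pair 52205, with a median of -0.26. The part of any of these in the 52205 change was not tested.

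**Figure D3:**
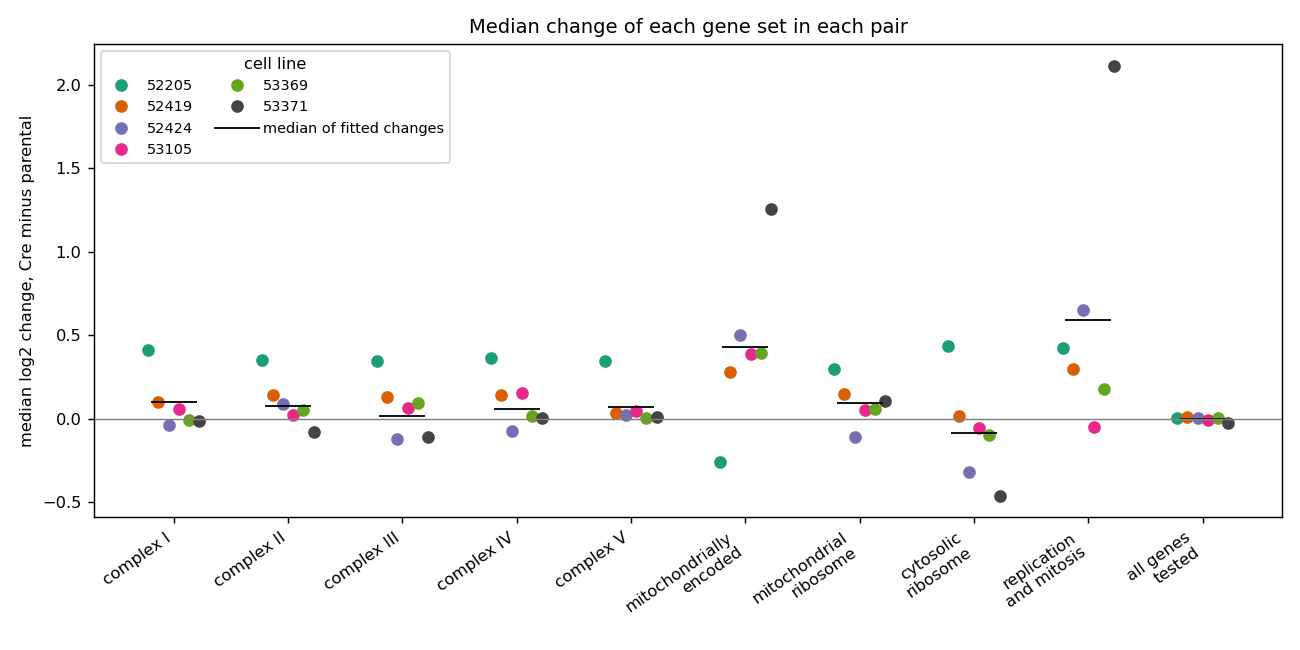
Median log2 change, Cre minus parental, of each gene set in each of the 6 pairs (coloured points), with the median of the fitted changes over pairs as a black bar. Pair 52205 stands above the other pairs in all 5 complexes and in the cytosolic ribosome, and below them in the mitochondrially encoded subunits.

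Grouped by symbol, complex I held 4 of the 7 members with an unadjusted p under 0.05. These were 10.8% of its 37 tested genes, against 6.96% of all genes tested that were higher at that level. Ndufb10 (chr17:24722060-24724423, GRCm38), an accessory subunit of the membrane arm, measured 72.2 to 92.5 CPM with a median of 80.9 in Cre and 55.6 to 81.5 CPM with a median of 66.7 in parental libraries. The ranges overlapped, but the Cre library was higher in all 6 pairs, most in 52205 (log2 change 0.57) and by 0.17 to 0.28 in the other 5. The fitted change was 0.27 (SE 0.077, limma adjusted p = 0.229).

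Ndufa4 (chr6:11900372-11907450), named for complex I but found in complex IV, measured 153 to 182 CPM with a median of 174 in Cre and 127 to 168 CPM with a median of 152 in parental libraries. It too was higher in all 6 pairs (log2 change 0.21, SE 0.069, limma adjusted p = 0.257). Ndufb7, another membrane arm subunit, measured 51.1 to 77.1 CPM in Cre and 40.0 to 69.3 CPM in parental libraries and was higher in 6 of 6 pairs (0.24, SE 0.080, limma adjusted p = 0.258). Ndufv1, the core subunit that binds NADH, had a median of 151 CPM in Cre and 149 CPM in parental libraries and was higher in 5 of 6 pairs (0.17, SE 0.073, limma adjusted p = 0.322). The core iron-sulphur subunit Ndufs1 was at 0.12 and higher in 4 of 6 pairs.

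A few complex I genes lay on the other side. Ndufc2, a membrane arm subunit, had a median of 40.8 CPM in Cre and 44.2 CPM in parental libraries, with a log2 change of -0.21 (SE 0.111, limma adjusted p = 0.403). It was lower in 5 of 6 pairs and higher in 52205 (0.31), and without pair 52205 it was at -0.31 with an unadjusted limma p of 0.00773. Ndufs5 was at -0.24 (SE 0.154, limma adjusted p = 0.476), at a level of only 3.68 ± 2.65 CPM in Cre and 4.54 ± 3.53 CPM in parental libraries (SD, n = 6 each). It has 1 near-identical pseudogene copy, BC002163 (99.4% identity), so its level is uncertain. Of the 37 complex I genes, 29 had estimates above 0.

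None of the 4 complex II genes passed the test, by limma at either level. Sdha, the flavoprotein that oxidises succinate, measured 213 to 336 CPM with a median of 259 in Cre and 213 to 332 CPM with a median of 228 in parental libraries. It was higher in 6 of 6 pairs by 0.00 to 0.26 on the log2 scale (fitted 0.12, limma adjusted p = 0.432). The iron-sulphur subunit Sdhb was at 0.02, and its sign turned with pair 52205 or 52419 left out. The membrane anchor Sdhd was at 0.17, higher in 5 of 6 pairs.

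In complex III, 4 of 8 tested genes had estimates above 0 and 4 below. Uqcrc1, a core subunit, measured 177 to 291 CPM with a median of 264 in Cre and 166 to 268 CPM with a median of 210 in parental libraries (log2 change 0.17, limma adjusted p = 0.369, higher in 5 of 6 pairs). Its partner Uqcrc2 was at -0.03 and higher in 2 of 6 pairs. Uqcrb, an accessory subunit at the ubiquinone site, was at 0.19, and the Rieske iron-sulphur protein Uqcrfs1 at 0.04.

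In complex IV as grouped by symbol, which leaves out Ndufa4, 1 of 12 tested members (8.33%) had an unadjusted p under 0.05, namely Cox8a. This small subunit measured 251 to 359 CPM with a median of 285 in Cre and 210 to 352 CPM with a median of 261 in parental libraries. It was higher in 6 of 6 pairs, by 0.01 to 0.28 on the log2 scale (fitted 0.16, SE 0.070, limma adjusted p = 0.324). Cox5a was at 0.19 and Cox5b at 0.18, both higher in 5 of 6 pairs. Cox7a2l, which helps join complexes III and IV into supercomplexes, had the lowest estimate of the complex, -0.22 (SE 0.137, limma adjusted p = 0.467), and was higher in 2 of 6 pairs. Its levels were 89.2 to 187 CPM in Cre and 86.2 to 235 CPM in parental libraries, and the largest decrease, -0.79, was in 53371. Of the remaining named complex IV genes, Cox7a2 was at 0.04, Cox7b at 0.05 and Cox7c at -0.03.

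Complex V, the ATP synthase, had 17 of 18 estimates above 0, and outside pair 52205 its medians by pair lay between 0.00 and 0.04. Atp5b measured 1387 to 1870 CPM with a median of 1702 in Cre and 1266 to 1653 CPM with a median of 1448 in parental libraries (log2 change 0.18, SE 0.098, limma adjusted p = 0.403), and was higher in 5 of 6 pairs. Atp5a1, the alpha subunit, averaged 908 ± 149 CPM in Cre and 847 ± 145 CPM in parental libraries (SD, n = 6 each) and was higher in 6 of 6 pairs by 0.04 to 0.16.

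The c ring that turns with proton flow is built from 1 mature protein encoded by Atp5g1, Atp5g2 and Atp5g3. Per kilobase of exon their levels were 5.74, 24.6 and 453 CPM, so Atp5g3 was the highest as counted. Atp5g1 and Atp5g2 have near-identical copies that leave their levels uncertain. Gm10175, a copy identical to the Atp5g2 coding sequence, averaged 142 CPM, against 18.0 CPM counted for Atp5g2. The exon length used was 4912 bases for Atp5g1, 731 for Atp5g2 and 724 for Atp5g3. Atp5g3 (chr2:73908447-73912464) measured 250 to 529 CPM with a median of 328 in Cre and 254 to 493 CPM with a median of 268 in parental libraries. The 2 highest of the 12 values were both from line 52419. The log2 change was 0.19 (SE 0.076, limma adjusted p = 0.295), above 0 in 5 of 6 pairs. Atp5g1 had a median of 30.0 CPM in Cre and 22.9 CPM in parental libraries and was higher in 6 of 6 pairs (0.25, SE 0.089, limma adjusted p = 0.276). Atp5md, also called DAPIT, was the 1 complex V gene estimated lower (-0.15, SE 0.194), and this rested on pair 53105, without which it was at 0.02.

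Promoters of respiratory chain genes are known for binding sites of the transcription factors NRF1 and GABP (also called NRF2) and of YY1. RefSeq promoter windows (250 bases before to 50 after the start, GRCm38.p6) were found for 68 member genes, with 73 windows. The NRF1 motif (GCGCA and GCGC with any 1 base between them) was present in 24.7% of the member windows, against 10.0% of those of all tested genes and 4.60% of all 32851 windows. The GABP motif CCGGAAG was in 23.3%, against 17.7% and 8.86%, and the YY1 motif AAGATGGCG in 9.59%, against 2.96% and 1.40%. Both strands were searched. At least 1 of the 3 motifs was in 49.3% of member windows, against 27.6% of those of all tested genes and 13.6% of all windows. By gene, 35 of 68 members (51.5%) held at least 1 of the 3 motifs. Of the 7 members with an unadjusted p under 0.05, 3 did, and their windows are shown 5′ to 3′ on the strand of the gene, with the motif match in capitals: NRF1 in Atp5g3 (chr2:73911277-73911576, minus strand), GABP in Ndufb7 (chr8:83566508-83566807, plus strand) and GABP at 2 places in Cox8a (chr19:7217567-7217866, minus strand). In Atp5g3 and Cox8a the capitals are the reverse complement of the motif, which reads on the opposite strand.
Atp5g3: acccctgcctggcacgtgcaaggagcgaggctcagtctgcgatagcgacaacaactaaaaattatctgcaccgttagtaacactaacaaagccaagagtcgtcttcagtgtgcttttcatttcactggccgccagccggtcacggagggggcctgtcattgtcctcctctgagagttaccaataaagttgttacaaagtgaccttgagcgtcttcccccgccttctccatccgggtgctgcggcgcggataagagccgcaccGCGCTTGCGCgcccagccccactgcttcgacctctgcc
Ndufb7: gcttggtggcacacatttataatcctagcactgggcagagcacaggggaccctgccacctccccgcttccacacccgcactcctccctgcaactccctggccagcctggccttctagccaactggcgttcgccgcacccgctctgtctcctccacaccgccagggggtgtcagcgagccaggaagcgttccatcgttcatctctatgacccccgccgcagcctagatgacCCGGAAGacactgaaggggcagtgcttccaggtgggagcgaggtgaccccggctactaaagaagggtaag
Cox8a: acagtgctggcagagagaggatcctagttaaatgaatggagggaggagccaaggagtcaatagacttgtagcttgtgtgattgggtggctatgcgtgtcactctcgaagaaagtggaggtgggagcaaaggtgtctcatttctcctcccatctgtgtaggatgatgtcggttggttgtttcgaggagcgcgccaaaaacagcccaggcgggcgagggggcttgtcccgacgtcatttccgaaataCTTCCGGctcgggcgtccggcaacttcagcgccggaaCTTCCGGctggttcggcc

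The 13 mitochondrially encoded subunits, the partners of these genes in complexes I, III, IV and V, showed larger estimates than the nuclear members. Their median log2 change was 0.43, and all 13 estimates were above 0. Of the 13, 11 were higher at an unadjusted limma p under 0.05, against 6.96% of all genes tested, but 0 passed adjustment. CYTB, the cytochrome b of complex III, averaged 1646 ± 560 CPM in Cre and 1106 ± 259 CPM in parental libraries (SD, n = 6 each; log2 change 0.52, SE 0.170, limma adjusted p = 0.257), higher in 5 of 6 pairs. ND3, the gene of this list with the smallest p, was at 0.25 (adjusted p = 0.248). The list's median by pair was -0.26 in 52205, 0.28 in 52419, 0.50 in 52424, 0.39 in 53105, 0.39 in 53369 and 1.26 in 53371. Pair 52205, where the nuclear members were highest, was thus the 1 pair with a negative median, and the largest median was in 53371, where replication and mitosis genes also had their largest (2.12).

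Other nuclear genes of mitochondrial function were described by lists, whose medians are given beside that of the members (0.09, and 0.02 without pair 52205). For the counts at an unadjusted limma p under 0.05, the shares of all genes tested were 6.96% higher and 8.18% lower. Among 76 mitochondrial ribosomal protein genes, limma put 13 above and 0 below the parental level before adjustment (p under 0.05), with a median of 0.09, which was 0.05 without pair 52205. Mrpl18 had the smallest p (57.4 ± 8.09 CPM in Cre, 42.8 ± 5.46 CPM in parental libraries, SD, n = 6 each; log2 change 0.42, limma adjusted p = 0.204). Of 17 complex I assembly factors, 0 passed an unadjusted p under 0.05 in either direction (median 0.10, and 0.04 without pair 52205), with Ndufaf2 at 0.23 and Timmdc1 at -0.15 nearest to it. Of 32 factors for complexes II to V (median 0.06, and 0.04 without pair 52205), 2 were higher at that level, led by Lrpprc, which stabilises mitochondrial mRNAs (0.27, adjusted p = 0.217, higher in 6 of 6 pairs), while Surf1 was at -0.14.

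Of 15 electron carrier and entry-point genes (median 0.11), 2 were higher at that level, led by the ADP/ATP carrier Slc25a4 (0.22, higher in 6 of 6 pairs), and Ucp2 was at -0.20. Of 18 tricarboxylic acid cycle genes (median 0.05, and -0.01 without pair 52205), 1 was lower, Idh2 (-0.19, lower in 6 of 6 pairs), and Dlst was at 0.13. Of 17 regulators of mitochondrial biogenesis (median -0.00, and 0.01 without pair 52205), 1 was lower, Myc (-0.29, lower in 6 of 6 pairs), and Yy1 was at 0.13. Of 20 hypoxia and glycolysis genes (median -0.08, and -0.12 without pair 52205), 6 were lower and 1 higher before adjustment. The shares of all genes tested were 8.18% lower and 6.96% higher. Among the 20 were the peptide hormone gene Adm at -1.03 and the pyruvate kinase gene Pkm at 0.24. By limma 0 of all these genes passed after adjustment.

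Lines against each other: differences between lines were more frequent than differences with Cre. The line term of the same fit, which treats both libraries of a line as its replicates although one derives from the other, was called at an adjusted p under 0.05 for 52 of 79 members (65.8%), against 71.1% of all genes tested. By complex, 20 of 37 genes were called in complex I, 2 of 4 in II, 5 of 8 in III, 10 of 12 in IV and 15 of 18 in V. The median distance between the highest and the lowest line was 0.69 on the log2 scale (1.62-fold). It exceeded 2 for 14 members, and in 12 of these line 53105 was the lowest. Line 52419 was the lowest for 30 members, 53105 for 27, and line 52424 was the highest for 23. Without line 53105, 28 members (35.4%) were called, against 60.5% of all genes.

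Line 53105 was low in a particular subset of members. Atp5h, the d subunit of the ATP synthase stalk, measured 6.88 CPM in the Cre and 5.74 CPM in the parental library of 53105, against 28.6 to 51.1 CPM in the other 10 libraries (line F = 77.7, and limma adjusted p = 0.0362 for the line term with 53105 left out). Cox7c measured 3.20 CPM in Cre and 3.47 CPM in parental cells of 53105, against 11.2 to 20.7 CPM elsewhere. Ndufa12 measured 1.54 CPM in Cre and 1.19 CPM in parental cells of 53105, against 6.63 to 11.0 CPM elsewhere. Both libraries of 53105 lay below all 10 others for each of these genes.

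Cox5b (6.11 CPM in Cre and 6.88 CPM in parental cells of 53105), Atp5g1 (9.31 and 8.93 CPM in the same order) and Cox7a2 (6.23 and 5.91 CPM) had the same pattern. Sdhd did as well, at 2.20 CPM in Cre and 1.93 CPM in parental cells of 53105, against 8.03 to 12.4 CPM elsewhere. Another gene of complex II, Sdha, was highest in 53105, at 336 CPM in Cre and 332 CPM in parental cells of this line. In complex IV, Cox4i1 stood at 550 CPM in Cre and 473 CPM in parental cells of 53105, against 485 CPM in Cre and 500 CPM in parental cells of 53369.

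Many of the members low in 53105 have near-identical copies elsewhere in the genome. A copy was taken as any other GENCODE transcript that matched at least 80% of a member's coding sequence at 95% identity or more. By this measure 24 members had copies, 43 in all, of which 39 are annotated as pseudogenes, and 5 members (Atp5g2, Atp5l, Atp5md, Cox7c and Ndufb4) had an identical one. The 23 tested members with a copy stood at a median of -0.64 (log2) in 53105 relative to the other 5 lines, and 10 of them (43.5%) lay below -1. The 54 tested members without a copy stood at -0.05, with 2 below -1 (Cox7a2 and Sdhd). The 2 pseudogene members stood at -2.38. Of the 43 copies, 6 were measured, compared here as the 53105 mean against the median of the other lines. Ndufs6b was lower in 53105 (2.57 against 8.36 CPM). Gm10175 (131 against 134 CPM), Gm6444 (26.4 against 28.8), Ndufb4c (31.1 against 27.4) and Gm16089 (21.1 against 20.1) were near the other lines. At a very low level, 4930481A15Rik was higher (0.548 against 0.0741 CPM).

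The same offset was seen outside the chain. Of 202 tested genes that RefSeq types as pseudogenes, 34.7% lay below -1 in 53105, against 0.495% to 2.97% in each other line, and among protein-coding genes the share in 53105 was 6.05%. Cytosolic ribosomal protein genes, a group with many processed pseudogenes, had a median of -1.55 in 53105. The 13 mitochondrially encoded subunits of the chain were not low as a group, with a median of 0.10 in 53105. Of these, ATP8 was at 32.2 CPM in Cre and 25.1 CPM in parental cells of 53105, against 120 to 327 CPM elsewhere. Reads that match several places can be shared out or dropped in counting, so the level of each member with a copy is uncertain, and whether 53105 was handled differently from the other lines was not tested.

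**Figure D4:**
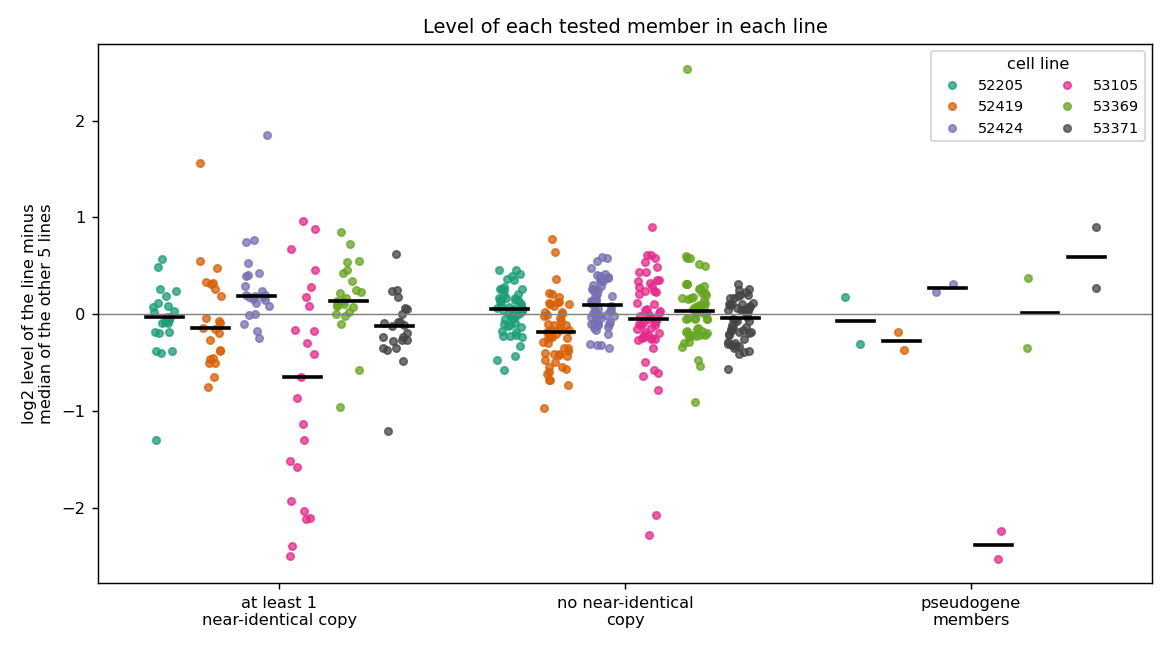
Level of each tested member in each line (mean log2 of its Cre and parental library) minus the median of the other 5 lines, for members with at least 1 near-identical copy, without one, and the 2 pseudogene members. Points are genes and bars medians. In line 53105, 10 of the 23 members with a copy lie below -1, and the highest point of all is Ndufb9 in line 53369.

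Cox7c shows how close such copies are. Its coding sequence (minus strand of chr13, GENCODE on GRCm38) is given with that of Gm12338 (chr11:75599763-75599954), which is identical over all 189 bases, and of Gm10012 (chr17:25901856-25902227), which has 2 mismatches, marked in capitals in Cox7c and Gm10012.
Cox7c: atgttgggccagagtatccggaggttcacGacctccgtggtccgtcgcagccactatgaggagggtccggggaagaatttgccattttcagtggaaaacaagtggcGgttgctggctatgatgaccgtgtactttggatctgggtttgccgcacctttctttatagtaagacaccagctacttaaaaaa
Gm12338: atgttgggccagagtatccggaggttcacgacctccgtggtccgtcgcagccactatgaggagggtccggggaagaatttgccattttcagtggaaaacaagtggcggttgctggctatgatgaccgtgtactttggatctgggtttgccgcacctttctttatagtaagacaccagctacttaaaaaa
Gm10012: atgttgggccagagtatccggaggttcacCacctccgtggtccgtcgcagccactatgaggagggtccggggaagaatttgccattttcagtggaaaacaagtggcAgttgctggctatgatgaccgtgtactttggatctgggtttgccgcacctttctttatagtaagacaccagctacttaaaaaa

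Members with a copy were called by the line term in 18 of 23 cases (78.3%), and in 10 of 23 without 53105. Members without a copy were called in 32 of 54 cases (59.3%), and in 18 of 54 without 53105. The shares of all genes tested were 71.1% with all lines and 60.5% without 53105. Median levels were 38.0 CPM per kb for members with a copy and 84.3 for those without. The Cre change did not separate the 2 kinds, with a median log2 change of 0.07 for members with a copy and 0.09 for those without.

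Ndufb9 had the highest F of the line term among members. This accessory subunit of the complex I membrane arm (chr15:58933801-58939516) measured 667 CPM in Cre and 673 CPM in parental cells of line 53369. In the other 5 lines it measured 74.0 to 163 CPM in Cre and 71.8 to 175 CPM in parental cells. Both 53369 libraries were therefore far above all others, 5.80-fold above the median of the other lines (line F = 101), while the Cre change in this line was -0.01.

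The genes around Ndufb9 were high in the same line. Within 1 Mb on either side, 17 other genes were tested, and 15 had both 53369 libraries above all 10 others, with a median of 4.16-fold over the 17. Across all genes tested, 9.68% had that pattern, and on chromosome 15 28.7% did. The 2 exceptions in the window were Anxa13 and Fer1l6. Among the members, 6 in all had both 53369 libraries above the rest. Copy number of the region was not measured.

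**Figure D5:**
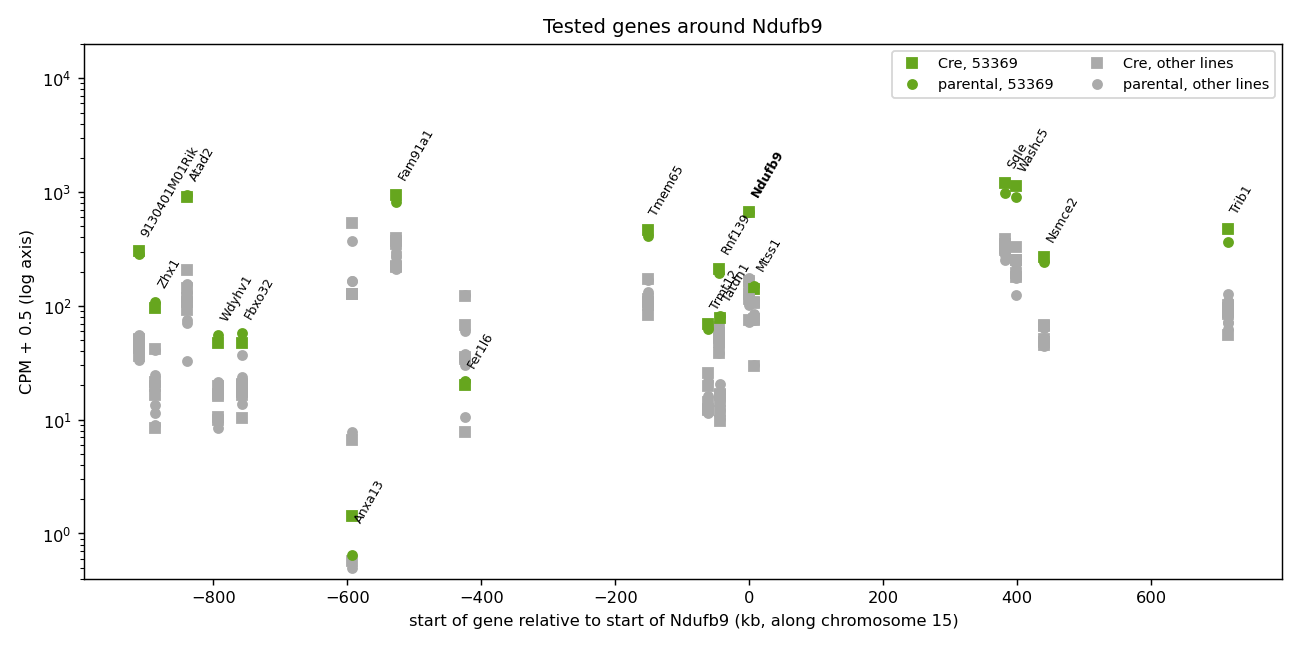
CPM + 0.5 (log axis) of the 18 tested genes within 1 Mb of Ndufb9 in Cre (squares) and parental (circles) libraries, by distance of each gene's start from that of Ndufb9. Line 53369 is green and the other 5 lines are grey. Both 53369 libraries are the highest for Ndufb9 and for 15 of the other 17 genes.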

How the data were processed

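Poly(A)-selected RNA of 12 mouse cell line libraries was measured. The submitters' processing notes list edgeR, featureCounts and FastQC 0.11.9, with mm10 and GRCm38 as builds. The aligner is not given in the sources used here. In the linear table that the authors deposited, the signal of a gene is its reads per 1e+06 of the library's scaled total (CPM). All signal values (100%) were whole multiples of 1 read within a tolerance of 0.01, 1 read being worth 0.0569 to 0.0896 CPM, so reads were recovered, and trimmed-mean (TMM) scaling factors recomputed from them matched within 6.21e-09. A further table, deposited as log2 values, covers 10903 of the 20432 genes. Symbols for Entrez identifiers came from RefSeq (19448) and GENCODE (11), and 973 stayed unnamed. The library protocol names no strand-marking step, so a gene and an overlapping partner cannot be told apart, and 20 members share over 5% of their exon bases with another gene, among them Ndufb9, Cox5a, Cox4i1 and Uqcrc2.

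Genes at 1 CPM or more in at least 6 libraries (12734) were fitted as log2(value + 0.5), which understates changes of low genes, with limma 3.58.1 (limma-trend, R 4.3.3), 2-sided, with cell line as a block and Benjamini-Hochberg adjustment over all genes tested, called under 0.05. The labels pair the libraries by line, and deviations from the group means correlated within pairs at 0.73 to 0.95. On the recovered reads, edgeR 4.0.16 (quasi-likelihood) called 0 genes higher and 5 lower and DESeq2 1.42.0 called 62 higher and 208 lower. The members and lists were chosen with earlier results of these data known. Genes were named by rule: in each complex, the 2 smallest p in each direction and the 2 smallest of the line term, with isoform pairs and core subunits (37 members), and in each other list the smallest p in each direction. Atp5g2, Atp5j, Atp5l, Ndufb4, Ndufab1, Uqcr11, Atp5c1-ps, CYTB, ATP8, the copies and the genes around Ndufb9 were named after their values were seen. Copies were found with BLAST on coding sequences. The procedure was tested on simulated data with changes far larger than those estimated for the members, so that test does not measure power for them. Alternatives were other pseudocounts, filters, scalings, tables, tools and weights, no block, and each pair left out.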

Additional observations from a re-analysis of the deposited data

Results flagged for a closer look

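Each group of 6 values was examined for a single value far from the rest by Dixon's gap criterion (the gap to the nearest value over the range of the group), which chance meets in about 1 in 20 groups. Of 104 groups, 11 met it. Line 52205 accounted for 5. Its median change was 0.41 for complex I and 0.35 for complex V, its change was 0.57 for Ndufb10 and 0.72 for Cox7a2, and its Cre library held 179 CPM of Uqcrfs1, each above the other 5 values. Line 53369 stood out for Ndufb9, with 667 CPM in its Cre and 673 CPM in its parental library. Line 53105 stood out in the parental group, high for Sdha at 332 CPM and low for Sdhd at 1.93 CPM. Line 52419 stood out for Atp5g3, with 529 CPM in its Cre and 493 CPM in its parental library.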

How the results depend on the processing

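No alternative called a member after adjustment in the Cre comparison. The count of members higher at an unadjusted p under 0.05, 7 in limma with the block, was 2 with no replicate block and 11 with library weights, and 3 to 11 with each pair left out (4 without 52205, 3 without 52419, 11 without 52424). The count lower, 0, was 1 with library weights (Ndufc2) and 0 to 1 with each pair left out (Ndufc2 without 52205, Cox7a2l without 53105). These counts have no share of all genes beside them for each setting. A setting can change the calls among all genes too, so they do not show a change particular to the members. Members differing between lines, 52, ranged from 28 (without 53105) to 58 (without 52205) with each pair left out, and were 49 to 62 under the other settings, the highest with library weights. Counting only members with no near-identical copy, which also leaves out the 2 pseudogene members, gave 32, an alternative chosen after seeing the data. With each pair left out, the complex medians ranged from 0.04 to 0.13 (I), 0.04 to 0.10 (II), -0.02 to 0.11 (III), -0.01 to 0.10 (IV) and 0.02 to 0.11 (V).

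Among the named members, signs turned for 10. With each pair left out the range was -0.014 to 0.088 for Atp5h, -0.029 to 0.058 for Sdhb, -0.014 to 0.096 for Uqcrfs1, -0.0063 to 0.13 for Cox4i1, -0.042 to 0.071 for Cox6b1, -0.097 to 0.10 for Cox7a2 and -0.034 to 0.090 for Cox7b, each lowest without 52205. It was -0.092 (without 52205) to 0.029 (without 52424) for Uqcrc2, -0.32 (without 52205) to 0.020 (without 53105) for Atp5md and -0.032 (without 53105) to 0.17 for Cox7a1, which was at -0.011 without 52205. Sdhb was at -0.010 without 52419. With library weights Sdhb was at -0.0017, Cox7a1 at -0.024 and Cox7a2 at -0.037. Without 53105 the line term was lost for Ndufa12 (limma adjusted p = 0.117), Sdha (0.201), Sdhd (0.553), Uqcrc1 (0.101) and Uqcrh-ps1 (0.109). The cause was not tested. Scalings moved the median of all genes by less than 0.01. Depth limits the tissue-restricted isoforms, with 2 to 55 reads in all libraries together.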
